A study of Mus musculus with 11 samples.

Results

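The BCL2 family genes described here are 10 regulators of apoptosis, measured by bulk RNA-seq in conventional type 1 dendritic cells (cDC1s) from mouse tumors. They were chosen by name among the 24421 genes of the count table. The anti-apoptotic members are *Bcl2l1*, *Mcl1*, *Bcl2a1b* and *Bcl2*, the effectors are *Bax* and *Bak1*, and the BH3-only members are *Bcl2l11*, *Bbc3*, *Pmaip1* and *Bid*. *Bcl2l1* had already been noted as higher in the double-deficient pools, so its differences involving those pools are given as a description with no test. All 10 genes exceeded 1 CPM (reads counted for a gene, scaled to a common library size) in at least 4 pools and were tested among 10951 genes.

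The BCL2 family decides whether the outer membrane of mitochondria stays intact. The effectors BAX and BAK open pores in that membrane and release cytochrome c, which starts the caspase cascade. Anti-apoptotic proteins such as BCL-XL, MCL1, A1 and BCL2 hold the effectors and their activators in check, and the BH3-only proteins (BIM, PUMA, NOXA and BID) sense stress and either block the guardians or activate the effectors. In dendritic cells these proteins set the lifespan of the cell, and unresolved stress of the endoplasmic reticulum (ER) is known to engage them.

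The data were 11 pools of cDC1s sorted from B16 melanoma, each from 2 to 4 tumor-bearing mice of 1 genotype on the C57BL/6 background, aged 6 to 14 weeks. The 4 control pools carried floxed alleles without Cre: control replicates 1 to 3 were XBP1 fl/fl and control replicate 4 was XBP1 fl/fl, IRE1 fl/fl. The 4 XBP1ΔDC pools were XBP1 fl/fl with CD11c-CRE, and the 3 XBP1ΔDC IRE1truncDC pools (double-deficient) were XBP1 fl/fl and IRE1 fl/fl with CD11c-CRE. CD11c (*Itgax*) drives Cre in other CD11c-expressing cells as well as in cDC1s. The recombined *Xbp1* allele cannot give a functional XBP1s protein, and the recombined *Ern1* allele leaves IRE1 without its RNase domain.

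Totals were 21089065 to 26843486 counts per pool, and levels are CPM scaled by the TMM method of edgeR. *Xbp1* was at 244 to 271 CPM in control, 130 to 165 CPM in XBP1ΔDC and 179 to 236 CPM in double-deficient pools, while *Ern1*, which encodes IRE1, was at 9.82 to 19.0, 9.74 to 15.6 and 17.0 to 26.0 CPM. *Xbp1* fell in XBP1ΔDC (log2 difference -0.74, SE 0.0973, adjusted p = 0.00167 in edgeR's quasi-likelihood test with Benjamini-Hochberg adjustment) and differed by -0.28 from control in double-deficient pools (adjusted p = 0.324). Counts per gene include exons outside the deleted parts, so they do not check recombination of *Ern1*. All 10 cDC1 markers had a median above 1 CPM, with *Xcr1* at 751 to 989 CPM. Their summed level was 12922 to 14179 CPM in control, 10819 to 12175 CPM in XBP1ΔDC and 11774 to 12598 CPM in double-deficient pools, so that both deficient lines lay below all control pools. Of these markers *Naaa* was lower than in control at -0.51 (adjusted p = 0.000495 in edgeR's test) and -0.33 (adjusted p = 0.0396) on the log2 scale, both short of a fold change of 1.5. *Naaa* had means of 4141, 2905 and 3298 CPM in control, XBP1ΔDC and double-deficient pools and made up most of the fall in the sum. The summed level of lymphocyte markers was 0.446 to 9.66 CPM and that of neutrophil markers 0.194 to 1.87 CPM. Macrophage markers summed to 249.3 to 503.1 CPM and markers of cDC2s and monocytes to 506 to 714 CPM over the 11 pools. Melanoma markers summed to 8.96 to 60.9 CPM in control, 12.2 to 64.7 CPM in XBP1ΔDC and 8.74 to 11.02 CPM in double-deficient pools. The part of all these markers in the results was not tested.

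The members differed widely in level. To compare genes, CPM were divided by the length of each gene's exons in kilobases (GENCODE vM21). In control pools *Pmaip1*, which encodes the BH3-only protein NOXA, was at 316 ± 51.0 CPM per kb (SD, n = 4) and *Mcl1*, its principal binding partner among the guardians, at 295 ± 27.9. By the counts as given, these were the most abundant members, and their pools overlapped. *Bcl2a1b* followed at 165 ± 56.4, *Bax* at 80.4 ± 5.44 and *Bid* at 17.1 ± 1.05 CPM per kb, each step without overlap of the control pools. Of the 50-base windows of the *Bcl2a1b* transcript, 79.2% also occur in other genes. Its level and its place in this order therefore depend on how shared reads were assigned. *Bcl2l1* at 10.8 ± 1.15, *Bcl2l11* at 9.41 ± 2.04 and *Bbc3* at 8.75 ± 1.005 CPM per kb were neighbours whose pools overlapped. *Bak1* at 3.94 ± 0.457 and *Bcl2* at 1.68 ± 0.284 CPM per kb were the least abundant. *Bax* therefore made up 95.3% ± 0.688 of the 2 effectors (SD, n = 4), and *Pmaip1* 89.8% ± 1.47 of the 4 BH3-only genes. With the longest transcript in place of all exons, *Bcl2l1* was at 19.2 and *Bcl2l11* at 15.0 CPM per kb, and the order of the 10 control means stayed as given.

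**Figure D1:**
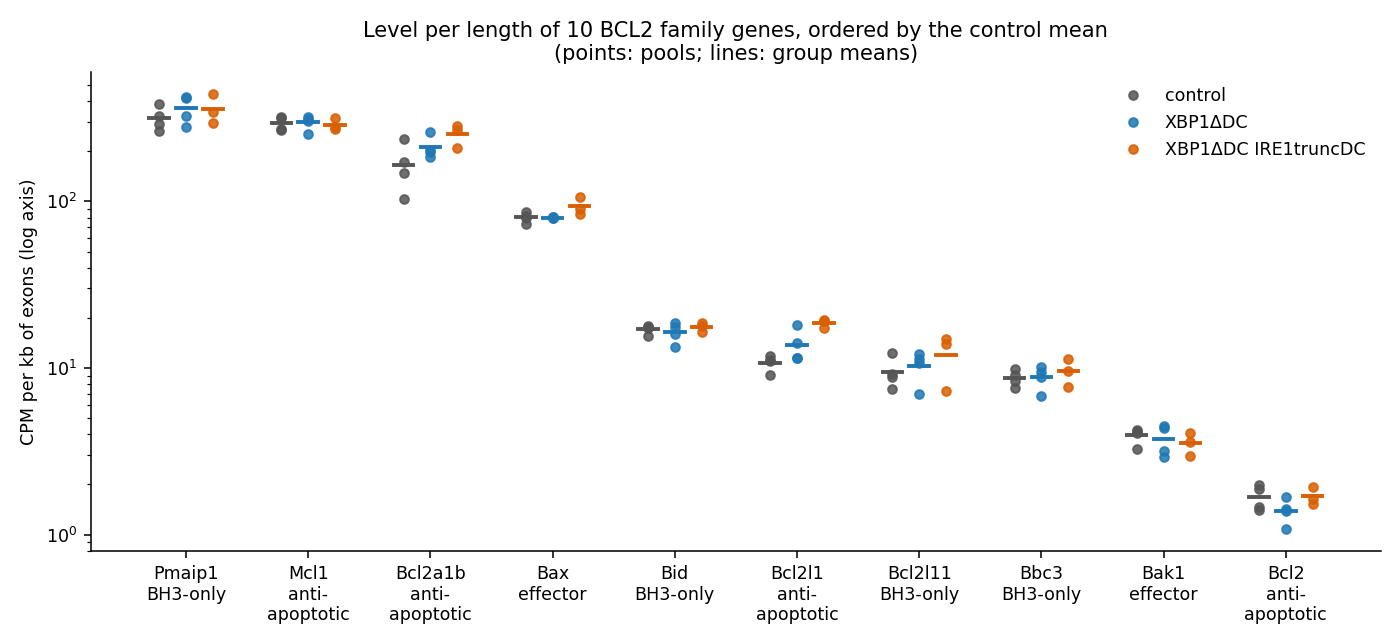
Level of each member in CPM per kb of exons (log axis), ordered by the control mean, with 1 point per pool and a line at the mean of 4 control, 4 XBP1ΔDC and 3 double-deficient pools. *Pmaip1* and *Mcl1*, at 316 and 295 CPM per kb in control, lie far above *Bcl2* at 1.68.

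Among the 4 anti-apoptotic genes, *Mcl1* held 63.1% ± 5.70 of the summed level per length in control, 56.8% ± 3.53 in XBP1ΔDC and 51.4% ± 3.87 in double-deficient pools (SD, n = 4, 4 and 3). *Bcl2a1b* held 34.2% ± 6.18, 40.3% ± 4.13 and 45.0% ± 4.21. *Bcl2l1* held 2.32% ± 0.407, 2.65% ± 0.663 and 3.31% ± 0.408, and *Bcl2* 0.371% ± 0.119, 0.269% ± 0.0631 and 0.303% ± 0.0438. Among these 4 genes, *Mcl1* and *Bcl2a1b* thus held most of the sum in every genotype. The A1 copies *Bcl2a1a* and *Bcl2a1d* are outside the sum. Their means were 44.1 and 75.9 CPM in control and 61.5 and 91.1 CPM in double-deficient pools. The values are therefore not shares of all anti-apoptotic transcripts. They also depend on how reads common to the A1 copies were assigned. These shares are a description without a test, since *Bcl2l1* is part of the sum.

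*Bcl2a1b* is 1 of several near-identical copies of the A1 gene on mouse chromosome 9, and its count depends on how reads were assigned among them. Its gene model lies at chr9:89199209-89207827 on the plus strand (GRCm38), is protein-coding and has 1 annotated transcript of 817 bases. The coding sequence of 516 bases differed from that of *Bcl2a1d* at 6 positions (98.8% identical) and from that of *Bcl2a1a* at 11 (97.9% identical). Of the distinct 50-base windows of its transcript, 79.2% also occurred in a transcript of another gene, and of 75-base windows 68.4%. Among these other genes is *Gm29094*, which overlaps *Bcl2a1b* on the same strand, so the values are not for the A1 copies alone. The first 60 coding bases hold 6 of the positions that tell the copies apart, printed 5′ to 3′ from the GENCODE vM21 transcripts with those positions in capitals:
Bcl2a1b: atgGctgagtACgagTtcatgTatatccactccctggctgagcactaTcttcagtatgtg
Bcl2a1a: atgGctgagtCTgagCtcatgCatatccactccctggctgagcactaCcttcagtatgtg
Bcl2a1d: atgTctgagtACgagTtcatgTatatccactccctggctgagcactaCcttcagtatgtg
Only a read that covers such a position can be given to 1 copy. For *Bcl2l1*, *Mcl1*, *Bak1*, *Bbc3*, *Pmaip1* and *Bid* no 50-base window was shared with another gene. *Bax* shared 8.51% of its 50-base windows with *Gm45808*, which overlaps it on the same strand. *Bid* overlaps *Bcl2l13* on the opposite strand, so reads from their shared part were separable only if strand was used in counting.

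*Bcl2l1* encodes BCL-XL and lies at chr2:152780668-152831728 on the minus strand (GRCm38), with 9 annotated transcripts and no overlapping gene. Control replicates 1 to 4 had 54.2, 51.1, 50.4 and 41.9 CPM. In XBP1ΔDC replicates 1 to 4 it was 52.6, 82.8, 52.8 and 65.2 CPM, and in double-deficient replicates 1 to 3 it was 88.5, 79.2 and 87.2 CPM. All double-deficient pools lay above all control pools, whereas XBP1ΔDC replicate 2 lay within the double-deficient range and replicates 1 and 3 within the control range. The log2 difference of double-deficient from control pools was 0.78 (1.72-fold) and that from XBP1ΔDC pools 0.42 (1.34-fold). These differences led to the gene being noted, and no test is given for them. In pooled cells more cells of a state with the transcript and more transcript per cell cannot be told apart. XBP1ΔDC and control pools differed by 0.36 on the log2 scale (SE 0.139), with an unadjusted p of 0.0237 and an adjusted p of 0.518 in edgeR's quasi-likelihood test. Without XBP1ΔDC replicate 2 that difference was 0.20, and that between double-deficient and XBP1ΔDC pools was 0.59. Control and XBP1ΔDC pools also entered the differences for which the gene was noted. The test of XBP1ΔDC against control is therefore not independent of the choice of *Bcl2l1*.

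*Bcl2l1* had 3 annotated starts in RefSeq, and the data do not tell which was used. One has a match to the NF-kB consensus, a factor known to act on this gene and on dendritic cell maturation, in the 250 bases before its start. These bases, chr2:152830718-152830967 on the minus strand (GRCm38.p6, RefSeq), are shown with the match in capitals because *Bcl2l1* is the member noted for its level:
Bcl2l1: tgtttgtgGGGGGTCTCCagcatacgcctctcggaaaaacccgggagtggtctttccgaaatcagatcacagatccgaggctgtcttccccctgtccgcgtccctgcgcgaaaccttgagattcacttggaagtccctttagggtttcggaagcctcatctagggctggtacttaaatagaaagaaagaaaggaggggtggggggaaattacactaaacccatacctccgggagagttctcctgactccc
The promoter of *Bcl2a1b* lies at chr9:89199023-89199272 on the plus strand. It is shown because this gene had the highest correlation with dendritic cell maturation markers among the members over all pools, genotype differences included. This promoter had a match to TGATGNAA, the core of the element bound by ATF4, again in capitals:
Bcl2a1b: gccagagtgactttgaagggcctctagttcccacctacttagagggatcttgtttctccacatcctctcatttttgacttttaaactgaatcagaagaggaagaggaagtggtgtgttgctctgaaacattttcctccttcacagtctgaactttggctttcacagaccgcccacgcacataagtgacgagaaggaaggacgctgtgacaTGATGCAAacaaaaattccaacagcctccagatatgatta
Both strands were searched for the NF-kB consensus, TGATGNAA, TGACGTG and TGACGTCA in 300-base promoters from RefSeq, of which 14 belonged to 9 members. Of 32851 promoters of all genes, 4.505% held the NF-kB consensus, 3.97% TGATGNAA, 2.01% TGACGTG and 1.79% TGACGTCA. Among the members the NF-kB consensus was found in 1 promoter each of *Bcl2l1* and *Bbc3*, and TGATGNAA in that of *Bcl2a1b*. The *Bcl2a1b* match begins 40 bases before the RefSeq start. The GENCODE gene model starts at 89199209, inside the printed bases, and the match lies after that start. A match is a description of the sequence, not a site.

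*Mcl1*, a short-lived guardian with high turnover, was even across the genotypes. The 4 control pools had 1079, 932, 1099 and 919 CPM. XBP1ΔDC replicates were at 1065, 1038, 871 and 1094 CPM and double-deficient replicates at 959, 927 and 1079 CPM, and the 3 groups overlapped. The log2 difference from control was 0.014 in XBP1ΔDC (95% confidence interval -0.18 to 0.21) and -0.027 in double-deficient pools (-0.24 to 0.18). Both intervals lie within a fold change of 1.5 in either direction.

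*Bcl2a1b* encodes A1, a guardian known to be induced by NF-kB. Its control levels were 140, 84.0, 194 and 121 CPM in replicate order. XBP1ΔDC replicates were at 213, 151, 166 and 162 CPM and double-deficient replicates at 172, 232 and 220 CPM. Control replicate 3 lay among the deficient pools, so the groups overlapped. The log2 difference from control was 0.62 in double-deficient pools (SE 0.220, unadjusted p = 0.0143, adjusted p = 0.307 in edgeR's test) and 0.36 in XBP1ΔDC (SE 0.206, adjusted p = 0.778). It did not pass the threshold. The XBP1ΔDC difference was 0.19 without control replicate 2 and 0.59 without control replicate 3. Counts of the 4 *Bcl2a1* genes summed gave 185 to 346 CPM in control, 273 to 363 in XBP1ΔDC and 313 to 399 in double-deficient pools, with a log2 difference of 0.50 between double-deficient and control (adjusted p = 0.292 in edgeR's test).

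*Bcl2*, the founding guardian of the family, was low throughout. Control pools held 13.4, 17.1, 12.9 and 18.1 CPM in replicate order. XBP1ΔDC replicates were at 9.83, 15.5, 12.6 and 13.003 CPM and double-deficient replicates at 14.9, 17.7 and 14.04 CPM. The log2 difference from control was -0.27 in XBP1ΔDC (95% confidence interval -0.64 to 0.096) and 0.015 in double-deficient pools (-0.38 to 0.41), with overlapping groups.

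**Figure D2:**
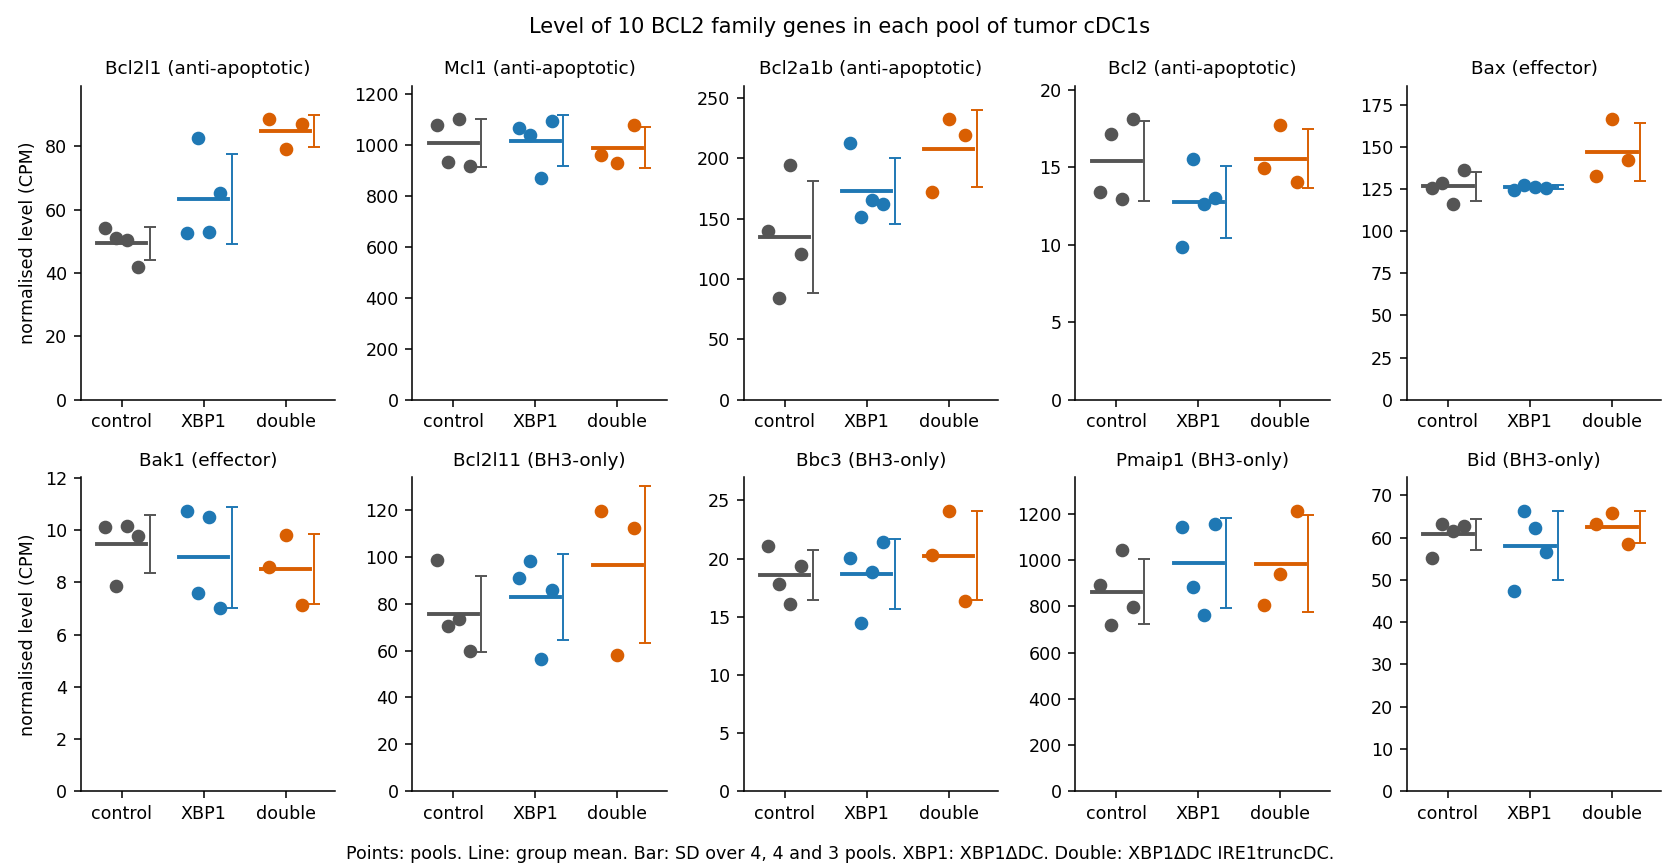
Normalised level in CPM (vertical axis, from 0) of each member in control, XBP1ΔDC and double-deficient pools, with 1 point per pool in replicate order, a line at the group mean and a bar for the SD. *Bcl2l1* was at 79.2 to 88.5 CPM in the double-deficient pools and 41.9 to 54.2 CPM in control, whereas *Mcl1* was at 927 to 1079 and 919 to 1099 CPM.

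Of the effectors, *Bax* was high and *Bak1* was low. *Bax* was at 126, 129, 116 and 137 CPM in control, 124, 127, 127 and 126 CPM in XBP1ΔDC and 133, 166 and 142 CPM in double-deficient replicates. Double-deficient pools lay above all XBP1ΔDC pools and overlapped control replicate 4. The log2 difference was 0.21 from control (SE 0.0868, unadjusted p = 0.0286, adjusted p = 0.374) and 0.22 from XBP1ΔDC (SE 0.0868, unadjusted p = 0.0244, adjusted p = 0.887 in edgeR's test). Double-deficient replicate 2, at 166 CPM, was the highest pool, and without it these differences were 0.12 and 0.12. *Bak1* was at 10.1, 7.85, 10.2 and 9.77 CPM in control, 10.7, 7.59, 10.5 and 7.03 CPM in XBP1ΔDC and 8.60, 9.83 and 7.13 CPM in double-deficient replicates. Its differences from control were -0.08 and -0.15 on the log2 scale (SE 0.192 and 0.208), within the spread of the pools.

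Among the BH3-only genes, *Bcl2l11* and *Pmaip1* spread widely between pools of 1 genotype. *Bcl2l11*, which encodes BIM, was at 98.4, 70.6, 73.6 and 59.7 CPM in control, 91.1, 98.1, 56.2 and 86.0 CPM in XBP1ΔDC and 119, 58.0 and 112 CPM in double-deficient replicates. A pair of double-deficient pools was the highest of all 11 and the other lay just below the lowest control pool. The difference from control was 0.35 on the log2 scale (95% confidence interval -0.18 to 0.89), so a fold change above 1.5 lies within the interval. It was 0.17 without double-deficient replicate 1 and 0.62 without replicate 2. *Pmaip1* was at 894, 721, 1044 and 797 CPM in control, 1144, 885, 764 and 1158 CPM in XBP1ΔDC and 804, 940 and 1213 CPM in double-deficient replicates. Its differences from control were 0.19 in both lines (SE 0.161 and 0.173, adjusted p = 0.903 and 0.765 in edgeR's test), and the groups overlapped. Without double-deficient replicate 3 the difference of the double-deficient pools was 0.013.

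*Bbc3*, which encodes PUMA and is a classical p53 target, was at 21.1, 17.8, 16.1 and 19.4 CPM in control, 20.1, 14.5, 18.8 and 21.4 CPM in XBP1ΔDC and 20.3, 24.1 and 16.4 CPM in double-deficient replicates. Its 95% confidence interval against control was -0.33 to 0.35 in XBP1ΔDC and -0.24 to 0.49 in double-deficient pools. *Bid*, which links death receptors to mitochondria, was at 55.3, 63.3, 61.5 and 62.8 CPM in control, 47.3, 66.3, 62.3 and 56.6 CPM in XBP1ΔDC and 63.1, 65.8 and 58.5 CPM in double-deficient replicates. Its intervals were -0.29 to 0.16 and -0.20 to 0.29. Neither gene differed beyond the spread of its pools.

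Counted over the family, 0 of 10 members passed an adjusted p under 0.05 with a fold change above 1.5 between XBP1ΔDC and control in edgeR's quasi-likelihood test, against 0.493% of all genes tested. DESeq2 and limma-voom also called 0. At an unadjusted p under 0.05 there was 1 member by each tool, *Bcl2l1*, against 7.62% of all genes by edgeR. As stated above, the test of *Bcl2l1* is not independent of its choice. The groups did not overlap for 0 of 10 members, against 5.31% of genes.

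Between double-deficient and control pools, 0 of the 9 members other than *Bcl2l1* were called by edgeR, DESeq2 or limma-voom, against 0.21% of genes by edgeR. By each tool 2 of 9 had an unadjusted p under 0.05, *Bcl2a1b* and *Bax*, against 11.2% of genes by edgeR, and 0 of 9 had groups without overlap, against 10.1%. Between double-deficient and XBP1ΔDC pools, 0 of 9 were called by edgeR, DESeq2 or limma-voom, against 0.0731% of genes by edgeR. By each tool 1 of 9, *Bax*, had an unadjusted p under 0.05, against 5.29% of genes by edgeR, and *Bax* alone had groups without overlap, against 6.07%. The median log2 difference of the 9 members was 0.12 from control and 0.11 from XBP1ΔDC, beside -0.0031 and 0.0015 over all genes tested. The comparisons share pools, so they are not independent of each other.

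**Figure D3:**
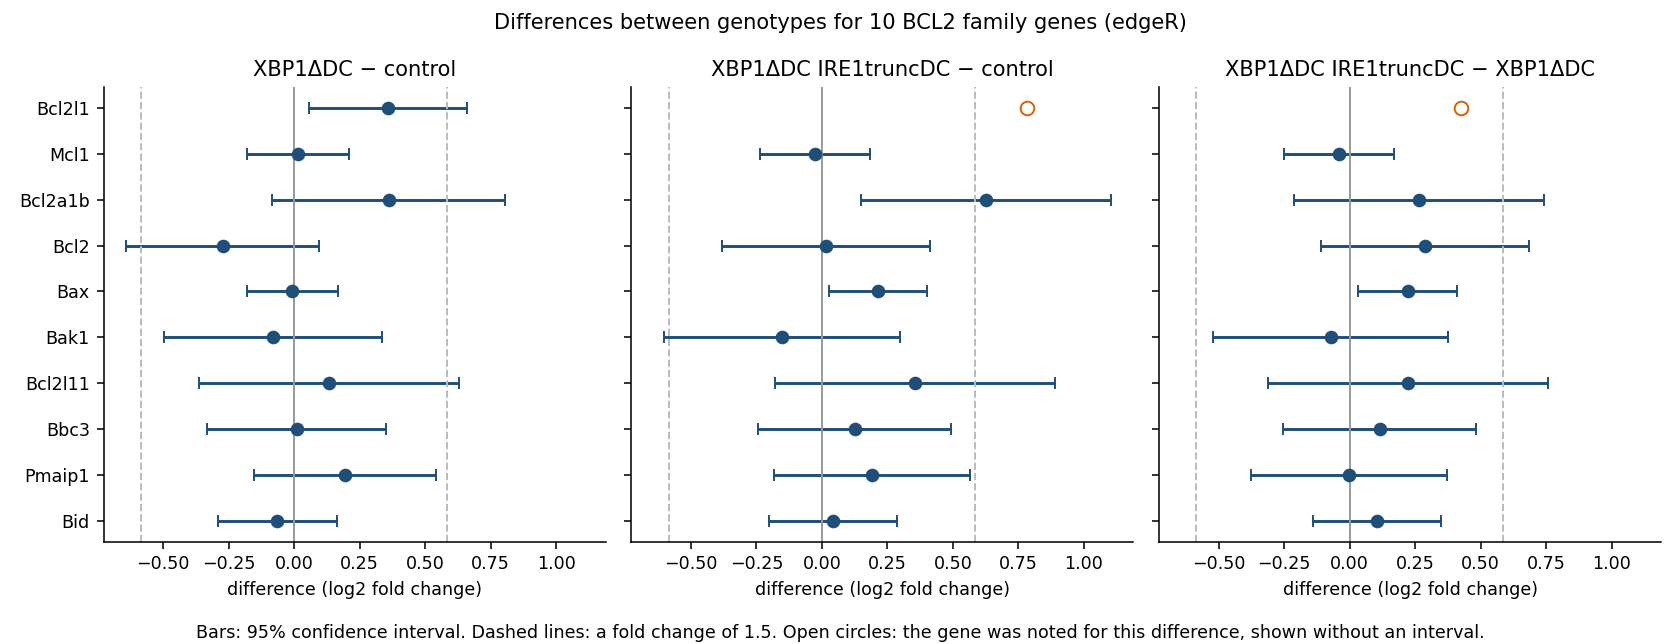
Log2 fold change of each member (horizontal axis) in the 3 comparisons, with 95% confidence intervals from edgeR and dashed lines at a fold change of 1.5. *Bcl2l1* in the comparisons with double-deficient pools is an open circle without an interval, at 0.78 and 0.42. The *Bcl2a1b* interval against control reaches from 0.15 to 1.10.

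Levels of dendritic cell maturation markers varied along with part of the family. The mean log2 CPM of 13 maturation markers, among them *Ccr7*, *Fscn1*, *Relb* and *Il12b*, was 7.16 ± 0.42 in control, 7.54 ± 0.28 in XBP1ΔDC and 7.83 ± 0.35 in double-deficient pools (SD, n = 4, 4 and 3). Not all of the 13 rose. In the same order of groups, *Cd86* had means of 320, 319 and 318 CPM and *Ccl17* of 24.3, 23.8 and 20.9 CPM. Of these 13 genes, 0 were called in edgeR's test in any comparison. At an unadjusted p under 0.05, 11 were higher in double-deficient than in control pools, against 2 in XBP1ΔDC and 0 between the deficient lines. Of all genes tested, 11.2%, 7.62% and 5.29% had an unadjusted p under 0.05 in these comparisons, in either direction. DESeq2 called 1, *Cd200*, between double-deficient and control, and limma-voom called 0. The median log2 difference of the 13 markers was 0.78 from control in double-deficient and 0.47 in XBP1ΔDC pools. Over all genes tested it was -0.0031 and 0.0050. The part of these markers in the *Bcl2a1b* and *Bcl2l1* differences was not tested.

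Across the 11 pools, *Bcl2a1b* followed the maturation mean with a Pearson's r of 0.89 (permutation p = 0.00032, adjusted p = 0.00288 over 9 members tested) and a Spearman's rho of 0.85 (permutation p = 0.00199, adjusted p = 0.0179). *Pmaip1* followed it with an r of 0.82 (permutation p = 0.00133, adjusted p = 0.00598) and a rho of 0.78 (permutation p = 0.00693, adjusted p = 0.0312). Without control replicate 2 and double-deficient replicate 3, the pools farthest from the median, r was 0.79 for *Bcl2a1b* and 0.67 for *Pmaip1*. The permutations ran over all 11 pools and not within genotypes, so these p-values include differences between genotypes. After the mean of each genotype was removed, r was 0.80 and 0.87, for which no test was run. Single pools went against this relation: double-deficient replicate 2 had the lowest maturation mean of its group, 7.59, and the highest *Bcl2a1b*, 232 CPM.

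None of the other 7 members tested passed the adjustment over the 9 permutation tests. The share of all genes tested that follow the maturation mean as closely was not computed. The count of members that passed therefore does not set the family apart from other genes. *Mcl1* had an r of 0.58 over all pools and 0.84 after the genotype means were removed, and *Bcl2l11* 0.57 and 0.50. *Bcl2* had an r of -0.51 and -0.76, and *Bid* -0.40 and -0.63. *Bcl2l1*, given as a description without a test, had an r of 0.59 over all pools and 0.06 within genotypes. XBP1ΔDC replicate 1, for example, had a maturation mean of 7.90 with *Bcl2l1* at 52.6 CPM, and XBP1ΔDC replicate 2 had 7.47 with *Bcl2l1* at 82.8 CPM. The remaining members, *Bax*, *Bak1* and *Bbc3*, had an r of 0.14, -0.11 and -0.04.

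**Figure D4:**
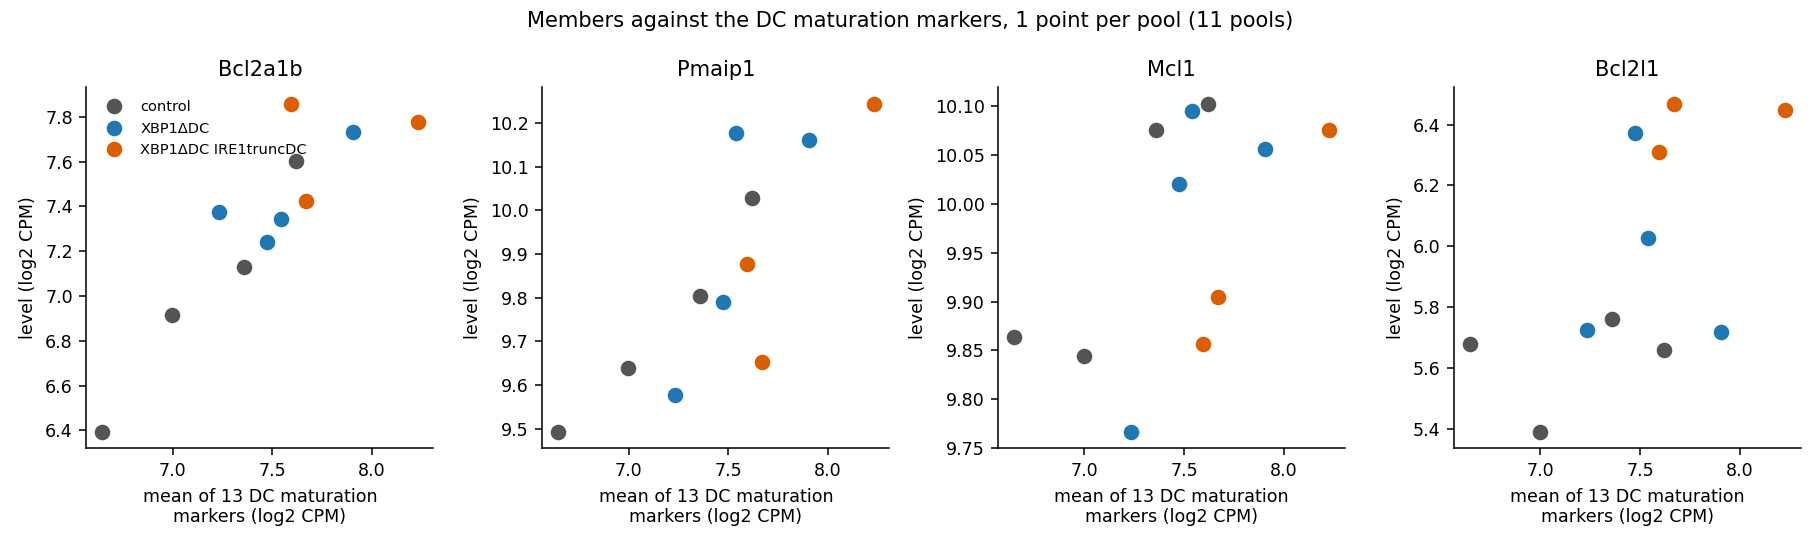
Level of 4 members in log2 CPM (vertical axes) against the mean log2 CPM of 13 dendritic cell maturation markers (horizontal axis), with 1 point per pool, coloured by genotype. *Bcl2a1b* and *Pmaip1* are higher where the markers are higher (r = 0.89 and 0.82), and r was 0.58 for *Mcl1* and 0.59 for *Bcl2l1*.

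The 5 genes whose log2 CPM followed *Bcl2l1* most closely over the 11 pools, of 10950 others tested, were *Cog7* (r = 0.92), *Armc5* (0.89), *Zfp236* (0.87), *Zmiz2* (0.86) and *Rab2a* (0.85). *Cog7* ranged from 24.3 to 33.5 CPM and *Rab2a* from 178 to 199 CPM, a narrower span than that of *Bcl2l1*. Within genotypes r was 0.86 for *Cog7* and 0.88 for *Armc5*, but lower for *Zfp236* (0.63), *Zmiz2* (0.53) and *Rab2a* (0.67). With 11 pools and so many genes these are a description, and 20 genes had an r above 0.8.

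The other genes of the pathway were taken from 6 lists: other BCL2 family genes, apoptosome and caspases, death receptor signaling, the p53 pathway, ER stress induced death, and turnover of MCL1 and BIM. Of their 83 genes 77 were tested. Between XBP1ΔDC and control, 1 of 77 was called and fell, between double-deficient and control 1 was called and rose, and between double-deficient and XBP1ΔDC 0 were called by edgeR, DESeq2 or limma-voom. At an unadjusted p under 0.05 these comparisons had 7, 20 and 8 of 77 genes by edgeR (9.09%, 26.0% and 10.4%), beside the 7.62%, 11.2% and 5.29% of all genes. *Ern1*, the gene altered in the double-deficient mice, is in the list for ER stress and is 1 of the 20 and 1 of the 8 genes. The medians over the 77 genes were 0.031, 0.020 and 0.037 on the log2 scale, beside 0.0050, -0.0031 and 0.0015 over all genes.

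Both called genes belong to the list for ER stress. *Eif2ak3*, which encodes the ER stress kinase PERK, was at 47.4, 44.9, 52.2 and 42.9 CPM in control replicates and fell to 30.6, 23.4, 26.0 and 34.7 CPM in XBP1ΔDC replicates. Its log2 difference was -0.71 (SE 0.124, adjusted p = 0.0151 in edgeR's test), and it was at 37.1, 40.3 and 36.6 CPM in double-deficient replicates. The call was lost without control replicate 1, control replicate 3 or XBP1ΔDC replicate 3, which left 0 of the list genes called. *Trib3*, a pseudokinase gene induced by ATF4 and CHOP, was at 3.56, 2.00, 3.48 and 1.79 CPM in control and 8.01, 32.2 and 7.61 CPM in double-deficient replicates, a log2 difference of 2.55 (SE 0.465, adjusted p = 0.0396 in edgeR's test). In XBP1ΔDC it was at 8.88, 9.60, 7.31 and 6.99 CPM (log2 difference 1.60, adjusted p = 0.191). Double-deficient replicate 2 was far above the rest, and without it, or without any 1 of the control pools or XBP1ΔDC replicates 1, 2 and 4, 0 list genes were called in that comparison. Without XBP1ΔDC replicate 3, *Chac1* was called in its place. DESeq2 called 3 and 4 list genes in the comparisons with control, adding *Ddit3*, *Chac1* and *Cdkn1a*, and limma-voom called *Eif2ak3* alone.

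In the other lists the genes with the smallest p-values did not pass the adjustment. *Bmf*, a BH3-only gene, was at 10.5 ± 1.70 CPM in XBP1ΔDC and 16.0 ± 2.21 CPM in control (log2 difference -0.62, SE 0.186, adjusted p = 0.268 in edgeR's test). In double-deficient pools it was at 15.8 ± 4.34 CPM. *Bcl2a1a*, the A1 copy whose reads cannot all be told from *Bcl2a1b*, was at 61.5 ± 5.82 CPM in double-deficient and 44.1 ± 8.99 CPM in control pools (log2 difference 0.48, adjusted p = 0.27). *Casp2*, an initiator caspase gene, was at 75.9 ± 6.77 and 95.7 ± 11.97 CPM in these groups (log2 difference -0.33, adjusted p = 0.298 in edgeR's test). In XBP1ΔDC pools *Casp2* was at 76.6 ± 7.57 CPM (log2 difference from control -0.32, adjusted p = 0.366 in edgeR's test).

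Between double-deficient and control pools, the TNF receptor adaptor *Traf2* differed by 0.37 (adjusted p = 0.185 in edgeR's test) and *Tnfaip8l2* by -0.39 (adjusted p = 0.231). The p53 targets *Cdkn1a* and *Sesn2* differed by 0.58 and 0.46 (adjusted p = 0.202 and 0.243), with *Cdkn1a* at 269 ± 54.2 against 180 ± 40.3 CPM. In the list for turnover of MCL1 and BIM, *Usp9x*, which encodes a deubiquitinase of MCL1, differed by -0.22 (adjusted p = 0.582) and *Gsk3b* by -0.18 (adjusted p = 0.644 in edgeR's test). Of that list 0 of 11 genes had an unadjusted p under 0.05 in any comparison by edgeR, DESeq2 or limma-voom.

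**Figure D5:**
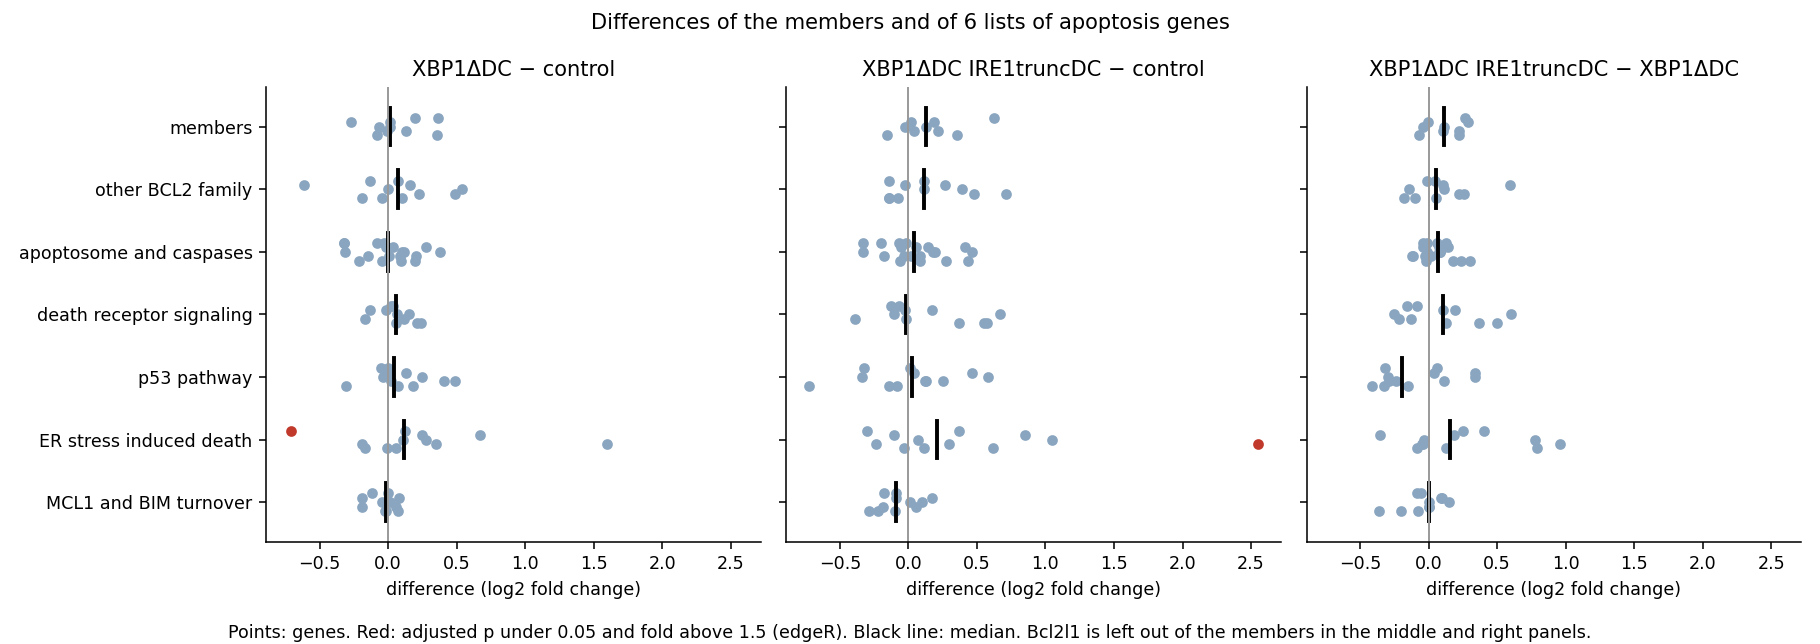
Log2 fold change (horizontal axis) of the members and of the tested genes of 6 apoptosis lists in the 3 comparisons, with 1 point per gene, red for genes called by edgeR and a black line at the median of each list. *Eif2ak3* at -0.71 and *Trib3* at 2.55 are the red points of the lists, and *Bcl2l1* is left out of the comparisons with double-deficient pools.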

How the data were processed

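Bulk RNA-seq was available for 11 pools. The authors amplified RNA with SMART-seq v4, sequenced single ends, trimmed reads with Trimmomatic 0.39, mapped them with STAR 2.7.3a and counted them per gene with HTSeqCount. The deposited table holds these raw counts (mm10 per the labels). The strand setting is not given in the sources used here. A deposited table of log2 values was not used. The 10 members and all gene lists were chosen with earlier results of these data known.

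Genes that exceeded 1 CPM in 4 or more pools entered a fit in R 4.3.3 with edgeR 4.0.16 (TMM scaling, quasi-likelihood test, 3 genotypes in 1 fit), with Benjamini-Hochberg adjustment over all 10951 genes. Genes with adjusted p below 0.05 that differed more than 1.5-fold were called. Log2 CPM used a prior count of 2. The p-values measure the spread between independent pools of animals. Correlations used 100000 permutations, two-sided, and were chosen after values had been seen. Gene models were GENCODE vM21 and promoters RefSeq, both GRCm38. Alternatives used DESeq2 1.42.0, limma 3.58.1, other scaling and filters, a replicate block and leaving out each pool. Summing the *Bcl2a1* counts was added after seeing the data. Genes named beyond the members are *Xbp1*, *Ern1*, markers, called list genes, the 2 smallest p of each list and the 5 genes most like *Bcl2l1*. A gene that this rule selects is not reported here. *Chac1*, *Ddit3*, *Cd200*, *Naaa*, *Cd86* and *Ccl17* were named after their values were seen. The count tests were tested on simulated data first.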

Additional observations from a re-analysis of the deposited data

Results flagged for a closer look

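*Bak1* in control replicate 2 stood apart from its group, at 7.85 CPM, with the nearest control pool at 9.77 CPM. The gap was 0.834 of the range of the 4 control pools, above Dixon's critical share for 4 samples. This was 1 of 20 sets of 4 pools examined, and chance marks about 1 in 20 such sets. The *Bak1* differences between genotypes were not called with or without this pool.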

How the results depend on the processing

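The count of members called was 0 in each comparison under all alternatives run, with *Bcl2l1* counted only between XBP1ΔDC and control. Under other settings no single member changed its call, and small differences changed sign. Calls of *Bcl2l1* in the comparisons with double-deficient pools were not compared between settings. The log2 difference of *Pmaip1* between double-deficient and XBP1ΔDC pools, -0.0030 in the reported fit, was 0.0029 with DESeq2 and with RLE size factors, 0.0023 with no filter and 0.013 with the replicate block. That of *Bax* between XBP1ΔDC and control was 0.021 with total counts. Leaving out 1 pool at a time gave ranges that crossed 0. Between XBP1ΔDC and control they were -0.028 to 0.085 for *Mcl1*, -0.048 to 0.030 for *Bax*, -0.18 to 0.022 for *Bak1*, -0.060 to 0.12 for *Bbc3* and -0.13 to 0.023 for *Bid*. Between double-deficient and control they were -0.087 to 0.10 for *Bcl2*, -0.095 to 0.017 for *Mcl1*, -0.017 to 0.26 for *Bbc3* and -0.0012 to 0.086 for *Bid*. Between double-deficient and XBP1ΔDC they were -0.19 to 0.040 for *Bak1*, -0.030 to 0.25 for *Bbc3* and -0.18 to 0.12 for *Pmaip1*.

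The count of other apoptosis genes called between XBP1ΔDC and control, 1 in the reported fit, was 3 with DESeq2, 2 with only the 2 groups compared, 0 with the replicate block and 0 to 2 with a pool left out. Between double-deficient and control, also 1, it was 4 with DESeq2, 0 with limma-voom, 0 with only the 2 groups compared, 0 with the replicate block and 0 to 1 with a pool left out. The cause was not tested. The replicate numbers do not pair the pools: deviations of same-numbered pools correlated at -0.026 on average (10 pairs, -0.26 to 0.13), against 0.0087 over 30 other pairs, and 2 of 11 pools were closest to a pool with their own number. The replicate block left 40, 11 and 3 of all genes called in the 3 comparisons, against 54, 23 and 8. DESeq2 called 95 and 36 genes in the comparisons with double-deficient pools, the fit with only the 2 groups compared called 15 between double-deficient and control, and no limit on fold gave 98 and 39 in the comparisons with control. With 3 or 4 pools per group, intervals of *Bcl2*, *Bcl2l1* (XBP1ΔDC against control), *Bcl2a1b*, *Bcl2l11* and *Bak1* include fold changes above 1.5.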
